A study of Mus musculus with 12 samples.

Results

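The endothelin system of the mouse aorta was described through 7 genes: the ligand genes Edn1, Edn2 and Edn3, the receptor genes Ednra and Ednrb, and the converting enzyme genes Ece1 and Ece2. They were chosen by name from the published pathway, with earlier results of these data known. Of the 7, 6 had a row annotated with that symbol alone among the 19687 genes tested. Ednra had no such row and was not analysed here, so the receptor that carries most of the constrictor response is missing from every value below. RNA came from the thoracic aorta of 12 male C57BL/6 mice, 1 mouse and 1 Affymetrix exon array per sample. In 7 of them, the P467L mice, the smooth muscle myosin heavy chain promoter drove human PPARγ carrying the dominant-negative P467L mutation in vascular smooth muscle. The other 5 were nontransgenic littermates with no such transgene. The sources used here give neither the age of the mice nor the number of transgenic lines. The comparison asks how aortic gene expression differs when PPARγ function is blocked in the smooth muscle of the wall.

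Endothelins are short peptides cut from longer precursors, first by furin-like proteases and then by the endothelin converting enzymes. In the vessel wall endothelin-1 is made mainly by the endothelium and acts on the smooth muscle beneath it, where the type A receptor, through Gq, phospholipase C and calcium release, causes long-lasting contraction. The type B receptor on endothelium promotes nitric oxide release and removes endothelin-1 from the circulation. PPARγ ligands are known to lower endothelin-1 production in cultured endothelial cells.

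The promoter of Edn1 is shown because Edn1 had the largest difference among the 6 genes. The window was taken from RefSeq on GRCm38.p6, chr13:42301226-42301525, plus strand, and covers 250 bases before and 50 bases after the annotated start. Capitals mark exact matches to the motifs searched on both strands, and no match overlapped another.
Edn1: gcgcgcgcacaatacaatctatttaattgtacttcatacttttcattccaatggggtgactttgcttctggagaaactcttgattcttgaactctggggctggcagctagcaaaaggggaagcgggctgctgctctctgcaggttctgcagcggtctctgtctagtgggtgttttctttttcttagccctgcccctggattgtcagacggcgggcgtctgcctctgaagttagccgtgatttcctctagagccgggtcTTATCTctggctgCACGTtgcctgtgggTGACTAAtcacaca
Positions are counted from the annotated start, and whether the aorta uses that start was not tested. The GATA factor motif searched was AGATAA, which the Edn1 window held on the minus strand at bases 9 to 14. The motif was found in 11.2% of 32851 promoter windows of the same length. The hypoxia-inducible factor motif was ACGTG, held on the minus strand at bases 22 to 26 and found in 19.6% of windows. The AP-1 variant motif was TGACTAA, held on the plus strand at bases 37 to 43 and found in 2.35% of windows. It differs from the usual AP-1 motif, and its share among windows is no test of the Edn1 match. The usual AP-1 motif TGANTCA, found in 7.81% of windows, and the consensus PPAR response element, a direct repeat with 1 base between its copies found in 0.0396%, had no match in the Edn1 window. Of the windows of the other members, 1 of the 4 of Ece1 and the 1 of Ece2 held the hypoxia-inducible factor motif, and those of Edn2, Edn3, Ednra and Ednrb held none of the motifs.

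Values are log2 intensities, so a difference of 1 is a 2-fold difference. A level was taken as above background when the gene's mean over the 12 arrays exceeded 5.18, the 95th percentile of the means of 919 olfactory and vomeronasal receptor genes. Arrays had medians of 4.74 to 4.79 and upper quartiles of 6.10 to 6.38, and precision is limited by how few there are. All 10 smooth muscle markers were above background, and their mean per array was 9.81 to 10.29 in P467L and 9.99 to 10.12 in nontransgenic aorta.

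Edn1, which encodes the endothelin-1 precursor, was the member with the largest difference, and it did not pass the test across all genes. In P467L aorta its level was 6.54, 6.89, 6.34, 6.69, 6.40, 6.86 and 6.64 in replicates 1 to 7, against 8.06, 7.57, 7.19, 8.03 and 6.59 in nontransgenic replicates 1 to 5. Nontransgenic replicates 1 to 4 each lay above every P467L array, while nontransgenic replicate 5 lay inside the P467L range, so the groups overlapped through 1 mouse. In whole aorta, fewer cells of a type and less RNA per cell cannot be told apart. The mean was 6.62 ± 0.21 (SD, n = 7) in P467L and 7.49 ± 0.62 (SD, n = 5) in nontransgenic aorta. The log2 difference was -0.87 ± 0.22 (SE; 95% interval -1.34 to -0.39), a level 0.55 times that of nontransgenic aorta (95% interval 0.39 to 0.76). In limma the unadjusted p was 0.00165 and the Benjamini-Hochberg adjusted p over all genes was 0.232. By that p Edn1 ranked 137 of 19687 genes, and 32 genes (0.163%), Edn1 itself included, had an absolute difference at least as large.

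**Figure D1:**
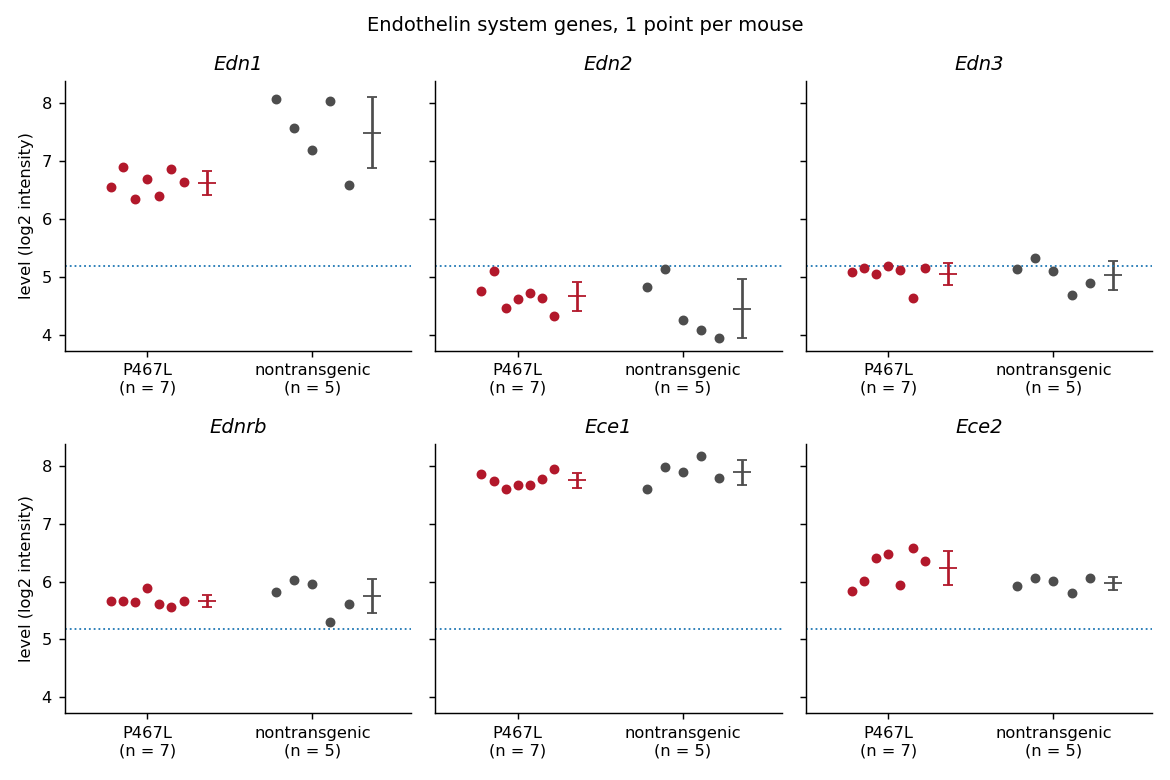
Level of each endothelin system gene (log2 intensity, vertical axis) in 7 P467L and 5 nontransgenic aortas, 1 point per mouse in replicate order, with the mean and SD beside the points and the background level of 5.18 as a dotted line. Edn1 lies between 6.34 and 6.89 in P467L aorta and between 6.59 and 8.06 in nontransgenic aorta, and the groups overlap in all 6 genes.

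The call on Edn1 turned on nontransgenic replicate 5. Without that array the difference was -1.09 ± 0.17 (SE) and the limma adjusted p was 0.0352, with 0.112% of all genes then passing and 0.0559% passing as lower in P467L aorta. Nontransgenic replicate 5 was the only nontransgenic array inside the P467L range, so leaving it out had to separate the groups for Edn1. That separation, and the smaller p with it, is therefore no independent support for a difference. Without the same array, 0.955% of all genes had groups without overlap. The outlier search described below did not flag this array, its gap being 0.408 of the group's range against a critical 0.71. Leaving out any other single array gave a difference between -0.94 and -0.72, with limma adjusted p from 0.272 to 0.534. In the pairs of arrays that share a replicate number, a pairing inferred from the data, Edn1 was lower in the P467L mouse in 5 of 5. The log2 differences were -1.52 to -0.19. Every nontransgenic array except replicate 5 lay above all P467L arrays, so only the pair of replicate 5 was free to go the other way. The replicate number as a block gave -0.92 ± 0.19 (SE; limma adjusted p = 0.181).

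The spread of Edn1 also differed between the groups. The SD of the nontransgenic arrays was 2.91 times that of the P467L arrays, a ratio above that of 99% of the 10650 genes above background, whose median ratio was 0.93. Nontransgenic replicate 5, at 6.59 the array farthest from its group mean, widens the nontransgenic SD of Edn1. The ratio was 2.79 for Ednrb, 2.06 for Edn2, 1.69 for Ece1 and 1.31 for Edn3. Ece2 had one of 0.37, the wider spread being in P467L. These ratios are a description and were not tested. The SE, interval and p given for Edn1 rest on a variance shared by both groups. With the wider spread in the smaller group, as for Edn1, such an SE tends to be too small and such a p too low. A test allowing unequal spread was not run.

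**Figure D2:**
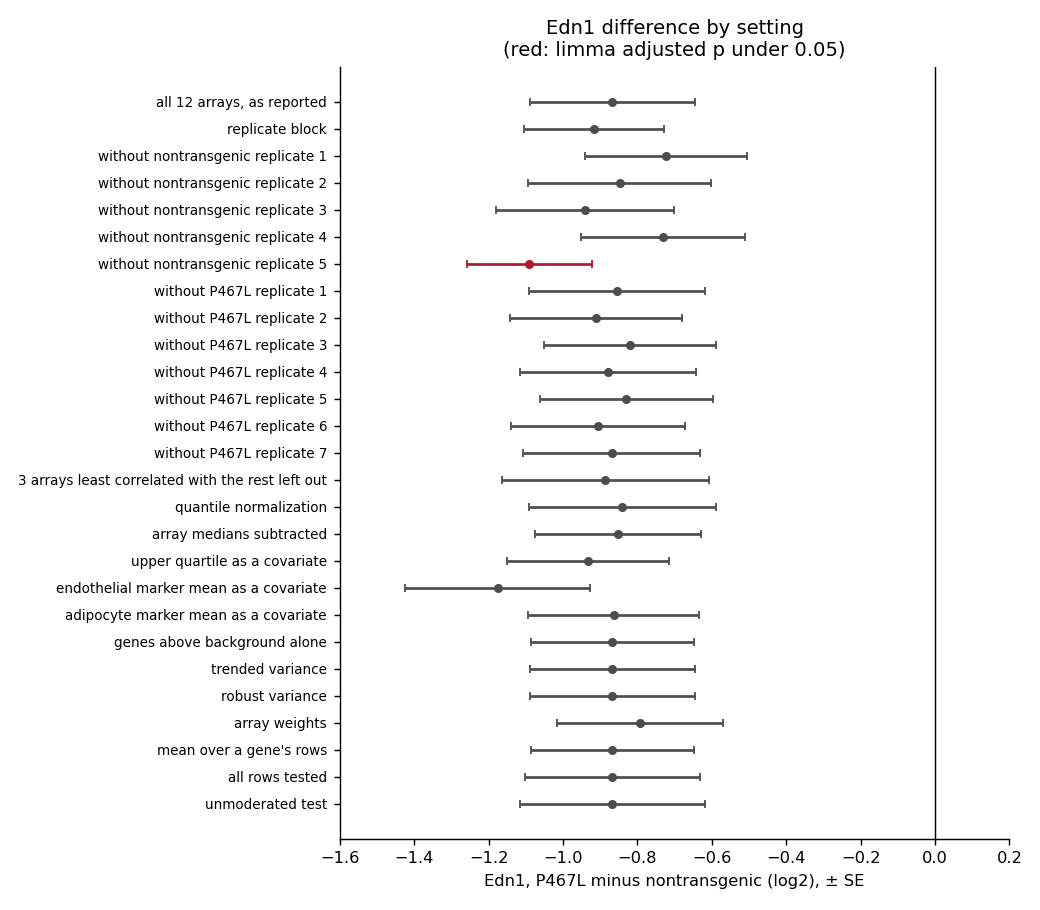
Difference of Edn1 between P467L and nontransgenic aorta (log2, horizontal axis, ± SE) with all 12 arrays and under 26 other settings. Every estimate lies below 0, between -1.18 and -0.72, and only that without nontransgenic replicate 5 has a limma adjusted p under 0.05.

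The means of both other ligand genes were under background in the aorta. Edn2 encodes endothelin-2, a close relative of endothelin-1 best known from the ovary and gut. Its level was 4.75, 5.10, 4.45, 4.62, 4.73, 4.64 and 4.32 in P467L replicates 1 to 7, against 4.82, 5.13, 4.26, 4.08 and 3.93 in nontransgenic replicates 1 to 5. The nontransgenic arrays were split, replicates 1 and 2 lying above the other 3, and they spanned all 7 P467L values. The log2 difference was 0.22 ± 0.20 (SE; 95% interval -0.21 to 0.64). The highest Edn2 value of each group came from the array with that group's lowest upper quartile, 6.10 for P467L replicate 2 and 6.16 for nontransgenic replicate 2, and with the upper quartile as a covariate the Edn2 difference was 0.10 ± 0.15 (SE). The part of array intensity in the Edn2 values was not tested further.

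Edn3 encodes endothelin-3, the ligand of the type B receptor in neural crest development. Its level was 5.09, 5.15, 5.04, 5.19, 5.11, 4.64 and 5.15 in P467L replicates 1 to 7, against 5.14, 5.32, 5.10, 4.68 and 4.88 in nontransgenic replicates 1 to 5. All values lay between 4.64 and 5.32, near the background level, with P467L replicate 6 and nontransgenic replicate 4 the lowest of their groups. The log2 difference was 0.03 ± 0.12 (SE; 95% interval -0.23 to 0.28), and its sign turned in 3 of 25 other settings.

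Ednrb, the type B receptor gene, was above background and differed by less than the spread between mice. Its level was 5.66, 5.67, 5.64, 5.89, 5.60, 5.56 and 5.67 in P467L replicates 1 to 7, against 5.82, 6.03, 5.95, 5.31 and 5.62 in nontransgenic replicates 1 to 5. The P467L arrays lay inside the nontransgenic range. The log2 difference was -0.08 ± 0.11 (SE; 95% interval -0.32 to 0.17). Schwann cells and melanocytes, which also use this receptor, were followed by 10 markers, of which 8 had a row and 4 were above background. Their mean per array was 4.50 to 4.88 in P467L and 4.66 to 4.83 in nontransgenic aorta.

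Ece1, the main endothelin converting enzyme of the vessel wall, was measured well above background. Its level was 7.86, 7.74, 7.59, 7.66, 7.66, 7.76 and 7.95 in P467L replicates 1 to 7, against 7.60, 7.98, 7.89, 8.17 and 7.79 in nontransgenic replicates 1 to 5. The groups overlapped over most of their range. The log2 difference was -0.14 ± 0.10 (SE; 95% interval -0.35 to 0.07), so its interval held no change as large as that estimated for Edn1.

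Ece2 encodes a related enzyme that works at acidic pH and is best known from neural and endocrine tissue. Its level was 5.84, 6.00, 6.41, 6.47, 5.94, 6.58 and 6.36 in P467L replicates 1 to 7, against 5.92, 6.06, 6.01, 5.80 and 6.06 in nontransgenic replicates 1 to 5. P467L replicates 3, 4, 6 and 7 lay above every nontransgenic array, and P467L replicates 1, 2 and 5 lay inside the nontransgenic range. The log2 difference was 0.26 ± 0.13 (SE; 95% interval -0.02 to 0.54), which did not pass the test (limma unadjusted p = 0.0688, adjusted p = 0.999). The other row of Ece2, with means of 4.68 in P467L and 4.67 in nontransgenic aorta, both under background, differed by 0.01 ± 0.09 (SE), so the rows of this gene did not show the same difference.

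**Figure D3:**
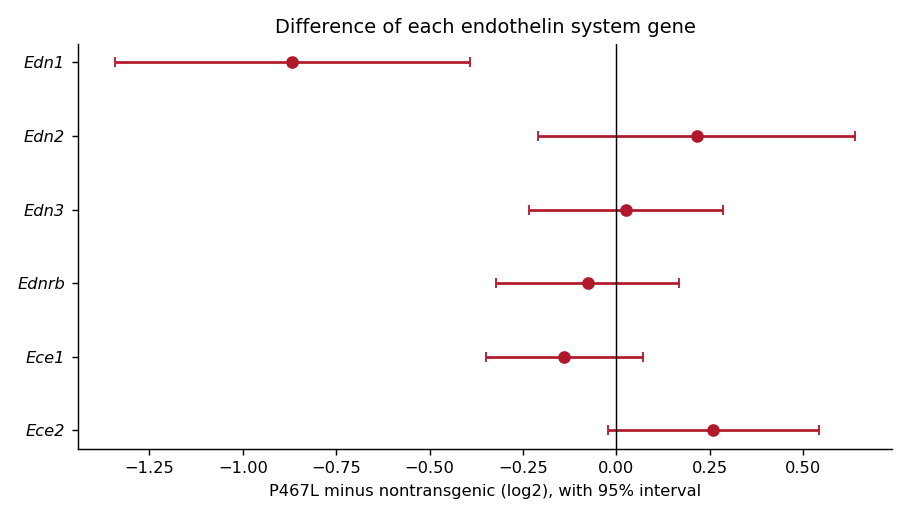
Difference of each endothelin system gene between P467L and nontransgenic aorta (log2, horizontal axis) with its 95% interval from limma, n = 7 and 5 mice. The interval of Edn1, -1.34 to -0.39, lies below 0 and the other 5 intervals include 0.

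Of the 6 genes, 0 were past an adjusted p of 0.05 in limma, where 0.244% of all genes tested were (48 genes). At an unadjusted p under 0.05 there was 1, Edn1, where 4.82% of all genes did, and an unmoderated test also called 0 after adjustment. The groups overlapped in all 6 (0 without overlap), and 0.726% of all genes had groups without overlap. The median difference was -0.03 over the 6 genes and 0.00 over all genes.

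The genes that act before and after the receptors in this pathway were followed in 4 lists with 62 entries, 58 of which had a row. None of the 58 passed the threshold in either direction in limma, 5 had an unadjusted p under 0.05 (8.62%, against 4.82% of all genes), and the median difference was -0.01. These lists were chosen from textbook roles, with earlier results of these data known.

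Among 11 genes of peptide processing and breakdown, 7 were above background and the median difference was -0.0037. Furin, which cuts the precursor to big endothelin, differed by 0.04 ± 0.09 (SE), and Mme, neprilysin, which degrades the active peptide, by -0.01 ± 0.12. The smallest p in this list belonged to Pcsk5, another proprotein convertase, at 0.27 ± 0.12, and the next to Ecel1, a relative of the converting enzymes, at 0.16 ± 0.11 with both means under background (limma adjusted p = 0.999 for both).

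Among 18 genes of G proteins and calcium release, 16 were above background and the median difference was -0.01. Gnaq, the Gq alpha subunit through which both receptors activate phospholipase C, averaged 8.02 in P467L and 7.72 in nontransgenic aorta, a difference of 0.30 ± 0.09 (SE; limma adjusted p = 0.515). Plcb1, a phospholipase C that Gq activates, averaged 6.16 in P467L and 6.52 in nontransgenic aorta, a difference of -0.36 ± 0.12 (SE; limma adjusted p = 0.572). These successive steps of the pathway thus had estimates of opposite sign, and neither passed the test. Gna11, the close relative of Gnaq, differed by -0.0032 ± 0.091 and Plcb4, another phospholipase C of this family, by -0.0036 ± 0.13 (SE).

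Among 9 genes of receptor desensitisation the median was 0.05. Grk5, a receptor kinase, averaged 7.67 in P467L and 7.95 in nontransgenic aorta, a difference of -0.28 ± 0.11 (SE; limma adjusted p = 0.778). Grk3, another receptor kinase, had the largest estimate of the 4 lists, 0.58 ± 0.30, with P467L arrays between 5.83 and 7.33 and nontransgenic arrays between 5.00 and 6.67.

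Among 20 genes for transcription factors known to act on Edn1, all 20 were above background, 13 had an estimate below 0 and the median was -0.04. Foxo1, a forkhead factor, differed by -0.22 ± 0.08 (SE; limma adjusted p = 0.733) and Gata6 by -0.12 ± 0.06. Gata2 and Jun, whose products bind the Edn1 promoter in endothelial cells, differed by -0.04 ± 0.08 and -0.18 ± 0.15. Pparg itself differed by 0.01 ± 0.12, and the sources used here do not say whether its mouse probes detect the human transgene.

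**Figure D4:**
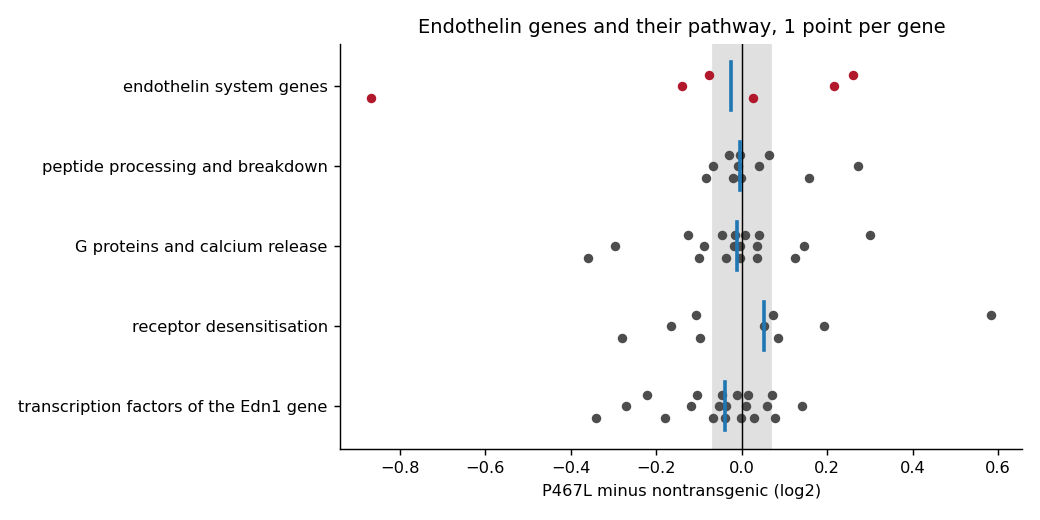
Differences between P467L and nontransgenic aorta (log2, horizontal axis), 1 point per gene, for the 6 endothelin system genes and the 4 pathway lists, with each list's median as a blue bar and the middle 50% of all genes, -0.07 to 0.07, as a grey band. Edn1 at -0.87 lies farthest from 0, followed by Grk3 at 0.58, and the list medians lie between -0.04 and 0.05.

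Because endothelium is the main source of endothelin-1, its markers are given beside Edn1. Of 15 endothelial markers, 13 were above background (Kdr and Robo4 were not), and 0 rose and 0 fell, where 0.244% of all genes passed. Of the 15, 11 had an estimate above 0 and the median difference was 0.07. Their mean per array was 6.38 to 6.47 in P467L and 6.32 to 6.42 in nontransgenic aorta, a mean difference of 0.06. Pecam1, an adhesion molecule of endothelial junctions, differed by -0.04 ± 0.10, Cdh5, VE-cadherin, by 0.08 ± 0.13 and Nos3, endothelial nitric oxide synthase, by 0.14 ± 0.10 (SE). With the marker mean as a covariate, the Edn1 difference was -1.18 ± 0.25 (SE; limma adjusted p = 0.211). That mean was lower in nontransgenic replicates 1, 2 and 5 than in every P467L array, while nontransgenic replicates 3 and 4 lay inside the P467L range. The covariate thus partly follows genotype, and its part in the larger Edn1 estimate was not tested. Of the 15 markers, 2 had an unadjusted limma p under 0.05, where 4.82% of all genes did, and their estimates had opposite signs. Emcn, the sialomucin endomucin, averaged 5.26 ± 0.19 (SD, n = 7) in P467L and 6.14 ± 0.46 (SD, n = 5) in nontransgenic aorta. Its log2 difference of -0.88 ± 0.17 (SE; limma adjusted p = 0.0703) was close to that of Edn1 and did not pass the test. The groups did not overlap for Emcn, as for 0.726% of all genes. Cldn5, the tight junction protein claudin-5, averaged 5.57 ± 0.28 (SD, n = 7) in P467L and 5.06 ± 0.13 (SD, n = 5) in nontransgenic aorta, the nontransgenic mean being under background. Its log2 difference of 0.52 ± 0.13 (SE; limma adjusted p = 0.216) did not pass the test either, and the groups overlapped for Cldn5.

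Markers of the other cell types of a dissected aorta overlapped between the groups. The mean of 6 adipocyte markers was 6.97 to 8.14 in P467L and 7.53 to 8.17 in nontransgenic aorta, and with it as a covariate the Edn1 difference was -0.86 ± 0.23 (SE). The mean of 5 macrophage markers was 6.38 to 6.86 in P467L and 6.38 to 6.93 in nontransgenic aorta, and that of 6 fibroblast markers 8.11 to 8.34 in P467L and 7.997 to 8.44 in nontransgenic aorta. The mean of 5 skeletal muscle markers was 5.31 to 7.77 in P467L, where replicate 4 was the highest, and 5.32 to 5.76 in nontransgenic aorta. Without P467L replicate 4 the Edn1 difference was -0.88 ± 0.24 (SE).

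The genes most like Edn1 within the groups were sought among 10649 other genes above background, by Pearson's r over the 12 arrays after each group's mean was subtracted. They were Nol3, an inhibitor of apoptosis abundant in muscle (r = 0.898, Spearman's coefficient 0.79), Irf2bpl, a transcriptional regulator (r = 0.868, Spearman's 0.839), 2310022B05Rik (r = 0.852, Spearman's 0.818) and Nfil3, a bZIP transcriptional repressor (r = 0.847, Spearman's 0.846). Without nontransgenic replicates 5 and 1, the arrays in which Edn1 deviated most, r was between 0.653 and 0.828. These 4 genes shared the low value of nontransgenic replicate 5 with Edn1 but not its difference between the groups: they differed by 0.17 ± 0.13, 0.06 ± 0.14, -0.08 ± 0.18 and 0.21 ± 0.20 (SE), in the same order. For Ednrb the most like were Fam184b (r = 0.898, Spearman's 0.825), Gm1141 (r = 0.889, Spearman's 0.734), Gpx4, which reduces lipid peroxides (r = 0.862, Spearman's 0.748), and Map1lc3b, a component of autophagosomes (r = 0.845, Spearman's 0.587). Without nontransgenic replicates 4 and 2 the r of these 4 genes was 0.506 to 0.738. All points come from the same 12 arrays and share their intensity differences, and the genes were picked as the highest of many, so no p is given.

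**Figure D5:**
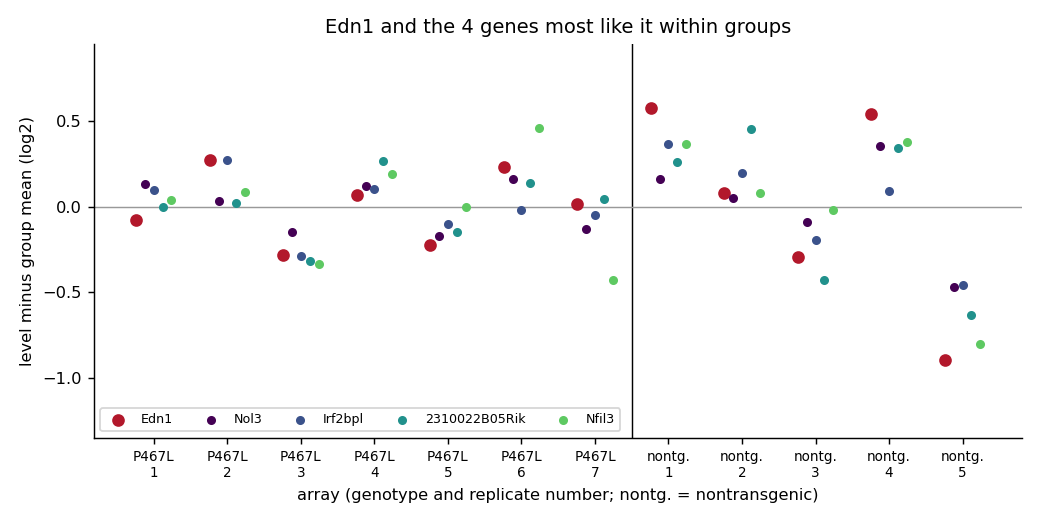
Level minus its group mean (log2, vertical axis) of Edn1 and of the 4 genes with the highest Pearson's r to it, in each of the 12 arrays, P467L on the left and nontransgenic on the right. All 5 genes are lowest, within the nontransgenic group, in replicate 5, where Edn1 lies 0.90 below its group mean.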

How the data were processed

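The authors deposited 1 table of log2 intensities, with 101175 rows, 12 arrays and 0 missing values. Per the labels' protocols, total RNA was extracted with Trizol and a column, and about 50 ng was amplified in steps with a NuGen kit. RMA, Affymetrix Power Tools and mm9 are named, per the submitters' processing notes. RMA shrinks differences of dim genes. Probe set class and versions: not given in the sources used here.

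Rows were named from the platform annotation: 22754 had 1 symbol, 1522 several and 76899 none. Each gene was taken as its row with the highest mean. limma 3.58.1 (R 4.3.3) compared P467L with nontransgenic arrays over all 19687 genes with no covariate, at a Benjamini-Hochberg adjusted p under 0.05, and was checked on simulated data. Errors are SE for differences and SD for levels. The members and lists were chosen with earlier results of these data known.

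Named genes were the members, the members of each pathway list past the threshold or else the 2 with the smallest p, and the 4 genes most like Edn1 and Ednrb. Furin, Mme, Gna11, Plcb4, Gata2, Jun, Pparg and the endothelial markers were named outside that rule, after their values were seen. One more pathway list is not reported here.

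Replicate numbers 1 to 5 occur in both groups, and arrays of equal number deviated together from their group means in all 5 (r over genes 0.227 to 0.398). They were taken to pair the arrays on that ground alone, with no label saying what a number stands for, and 3 of 5 nontransgenic arrays correlated best with their own number. 26 alternatives were run.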

Additional observations from a re-analysis of the deposited data

Results flagged for a closer look

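Each group of arrays of each of the 6 endothelin system genes, 12 groups in all, was searched for 1 array standing far from the others, and 2 were found. About 1 in 20 such groups is picked out when nothing is unusual. Edn3 in P467L replicate 6 was 4.64, under the background level, against 5.04 in the nearest other P467L array, a gap of 0.733 of the group's range. Ednrb in P467L replicate 4 was 5.89, against 5.67 in the nearest other P467L array, a gap of 0.647 of the range, and P467L replicate 4 was also the array with the highest mean of skeletal muscle markers, 7.77. Without these arrays the log2 difference of Edn3 was 0.09 ± 0.10 (SE) and that of Ednrb was -0.11 ± 0.12 (SE). The part of muscle tissue in the Ednrb value was not tested.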

How the results depend on the processing

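The number of endothelin system genes past the threshold was 0 in 25 of 26 alternatives and 1 without nontransgenic replicate 5, where it was Edn1 (-1.09; limma adjusted p = 0.0352), so leaving out 1 array gave 0 to 1. It was 0 with the replicate block, which changed no call among these genes or their pathway. The number of pathway genes past the threshold was 0 in all 26. Edn1 kept its sign in all 26, at -1.18 to -0.72, with limma adjusted p from 0.0352 to 0.660. Edn2, Ednrb, Ece1 and Ece2 kept theirs and never passed, but their sizes moved: leaving out 1 array gave 0.088 (without nontransgenic replicate 5) to 0.39 (without nontransgenic replicate 2) for Edn2, -0.19 (without nontransgenic replicate 4) to -0.0050 (without nontransgenic replicate 2) for Ednrb, -0.21 (without nontransgenic replicate 1) to -0.069 (without nontransgenic replicate 4) for Ece1 and 0.20 to 0.32 for Ece2, which was 0.14 as the mean over its rows and 0.42 with the endothelial marker mean as a covariate. Edn3 turned to -0.061 without nontransgenic replicate 4, to -0.0098 without nontransgenic replicate 5 and to -0.026 with the upper quartile as a covariate, in a range of -0.061 to 0.099 when 1 array was left out; the cause was not tested. With genes above background alone, Edn2 and Edn3 have no value by construction. Over all genes the number past the threshold was 48 as reported, 30 with the replicate block, 11 to 48 when 1 array was left out, 8 without the 3 arrays least correlated with the rest, 7 with the endothelial marker mean and 106 with the upper quartile as a covariate, 76 after quantile normalization, 15 in the unmoderated test and 9 among all rows. Dim genes limit these results: Edn2, Edn3 and the other row of Ece2 lay under background, where a difference in transcript level can be hidden.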
